A study of Rattus norvegicus with 6 samples.

Results

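The 10 rat genes described here carry out the synthesis, inactivation and reception of prostaglandins: Pla2g4a, Ptgs1, Ptgs2, Ptges, Ptges2, Ptges3, Ptgis, Hpgd, Ptger2 and Ptger4. They were chosen by name, with earlier results of these data known, as were the gene lists used below. All 10 were found among the 20675 genes of the deposited table. RNA of cultured primary disc cells of the temporomandibular joint, where the disc cushions the jaw, was sequenced. In the GSK101 group (3 libraries) the cells received GSK101, an agonist of the calcium-permeable channel TRPV4, for 24 h. In the control group (3 libraries) they received the solvent DMSO at a matched concentration for 24 h. The dose, the age, sex and strain of the rats, the passage of the cells and any pooling of animals are not stated. Whether the 3 libraries of a group stem from different animals or cultures is also not stated, so p-values reflect the spread among libraries, which may be technical.

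Prostaglandins are short-range lipid signals made from arachidonic acid. Cytosolic phospholipase A2 frees arachidonic acid from membranes, a cyclooxygenase turns it into the unstable intermediate PGH2, and a terminal synthase makes the final product, such as PGE2 or prostacyclin. PGE2 acts through the receptors EP1 to EP4, of which EP2 and EP4 raise cyclic AMP, and it is inactivated by uptake and oxidation. In joints PGE2 is known as a mediator of inflammatory pain and of matrix turnover.

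The libraries held 43061102 to 45705238 counted reads. Across all 12801 tested genes, 31.9% were called at a Benjamini-Hochberg adjusted p under 0.05 in limma, 20.1% as higher with GSK101 and 11.9% as lower. The share of calls that were higher was 62.9% on the RPKM scale, 72.4% on a TPM scale, 52.5% with median-ratio scaling and 48.1% with quantile normalization. RPKM, reads per gene length and counted reads of the library, allows levels of different genes to be compared. The identity of the cells is taken from the labels. Fibroblast and matrix genes had summed levels of 6694 to 7546 RPKM in the controls and 5872 to 6885 with GSK101 (3 of 7 higher, 1 lower). Most of that sum was Col3a1, Col1a1 and Thy1, with control means of 3521, 1903 and 1500 RPKM, and Thy1 was the 1 lower. The 3 higher were Dcn, Lum and Pdgfra, with control means of 17.0, 32.0 and 11.7 RPKM. The chondrocyte markers summed to 32.9 to 40.9 RPKM (control) and 33.6 to 36.1 RPKM (GSK101), most of it the cartilage proteoglycan gene Acan, and neither of the 2 tested was called. Within that list Sox9 was at 2.22 to 2.92 RPKM, whereas the cartilage collagen gene Col2a1 reached at most 0.0389 and was at 0 in 1 library. Of 7 macrophage and leukocyte markers, 3 were tested and 1, Cd14, was higher. The summed level of this list spanned 61.2 to 78.3 RPKM (control) and 62.4 to 83.2 RPKM (GSK101). Most of that sum was Lyz2, at 53.8 to 71.7 RPKM, followed by Cd68 at 3.99 to 7.18. The leukocyte gene Ptprc lay between 0.349 and 0.576, and Csf1r and Adgre1 reached at most 0.350 and 0.390. Of 5 pericyte and smooth muscle markers, 4 were tested and 3 were lower. The summed level of the 5 was 426 to 443 RPKM (control) and 276 to 303 RPKM (GSK101). Myh11 made up most of this sum (means 396 and 255 RPKM in control and GSK101). The 3 lower were Myh11, Mcam and Notch3, with log2 fold changes of -0.63, -0.53 and -0.49. Cspg4 had a log2 fold change of 0.20 and was not called (limma adjusted p = 0.116). Rgs5 was not tested and had 0 to 8 reads per library. The summed mast cell markers were at 0.460 to 0.503 and 0.213 to 0.274 RPKM, with Cpa3 and Cma1 at 0 in at least 1 library, and the summed endothelial markers at 0.667 to 0.854 and 1.10 to 1.32. Most of the mast cell sum was Kit (means 0.451 and 0.241 RPKM in control and GSK101). Of the 5 endothelial markers, 1 was tested, Kdr, and it was higher. Kdr made up most of the endothelial sum (means 0.551 and 1.01 RPKM). Tek had means of 0.128 and 0.118 RPKM, and Cdh5 had 18 reads in the controls and 4 with GSK101. Of 3 synovial lining markers, 1 was tested and was higher (Prg4), and their sum was 8.89 to 13.5 RPKM (control) and 20.4 to 38.8 RPKM (GSK101). The part of these cell types in the results on prostaglandin genes was not tested. In bulk samples, fewer cells of a type and less RNA per cell cannot be told apart.

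The 10 genes differed widely in abundance, and 3 of the better covered ones rose modestly with GSK101. Ptges3, Ptgs1 and Pla2g4a were the most abundant, Ptgs2, Ptges2 and Ptger4 lay between 1.31 and 3.51 RPKM in every library, and Ptges, Ptgis, Hpgd and Ptger2 did not reach the filter for testing (at least 0.5 RPKM in at least 3 libraries). Of the 6 genes that could be tested, 3 rose (Pla2g4a, Ptgs1 and Ptges3), none fell at the threshold, and Ptgs2, Ptges2 and Ptger4 did not pass. Over all tested genes, 20.1% were called higher and 11.9% lower. The median log2 fold change of these 6 was 0.18, against 0.03 over all tested genes. The 2 groups of libraries were apart in 4 of these 6 genes, where 47.3% of all tested genes had groups apart. Nothing beyond a description is drawn from a count of 6.

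**Figure D1:**
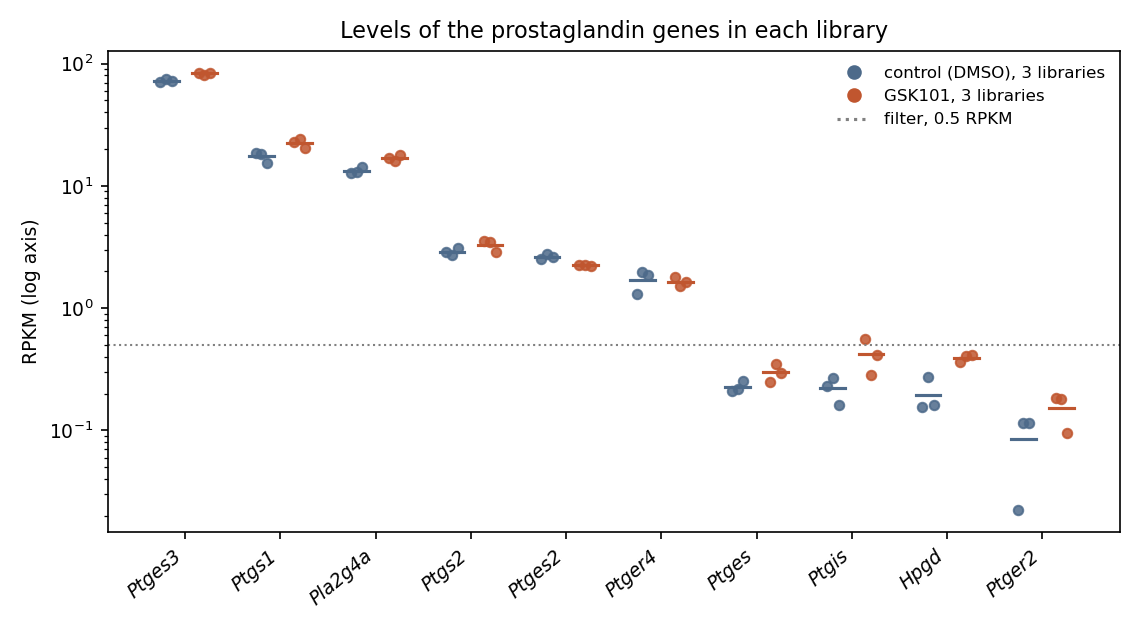
RPKM of the 10 prostaglandin genes on a log axis, with 1 point per library, a line at each group mean and a dotted line at the filter of 0.5 RPKM. Ptges3 lies at 70.7 to 84.4, Ptgs1 and Pla2g4a at 12.8 to 24.2, and 4 genes lie at or below 0.556 in all libraries.

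In both groups the order of the mean levels ran from Ptges3 through Ptgs1, Pla2g4a, Ptgs2 and Ptges2 to Ptger4. The ranges of Ptgs2 and Ptges2 overlapped in the controls and did not with GSK101. Below Ptger4, the controls had Ptges, Ptgis and Hpgd at overlapping levels, and with GSK101 the order became Ptgis, Hpgd and Ptges, with Ptgis and Hpgd overlapping. Ptger2 was the lowest in both groups. None of the 10 genes shared exon positions with another gene of the file.

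Pla2g4a encodes cytosolic phospholipase A2 alpha, the calcium-activated enzyme that releases arachidonic acid from membrane phospholipids. It lies on chromosome 13 of Rnor_6.0, on the minus strand from 66988937 to 67206693. Its RPKM was 12.8, 13.1 and 14.2 in the controls and 17.0, 16.1 and 17.7 with GSK101. Every GSK101 library lay above every control library. The gene rose 1.27-fold, from 13.3 ± 0.720 to 16.9 ± 0.835 RPKM (SD, n = 3; log2 fold change 0.33, SE 0.06, limma adjusted p = 0.00458). The call held in all 18 alternatives, with limma adjusted p from 0.000969 to 0.0205.

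Of the 8 tested genes for other phospholipases and arachidonate-releasing lipases, 1 rose and 3 fell. Over all tested genes, 20.1% were called higher and 11.9% lower. Pla2g2a, a secreted phospholipase A2, had 0.103, 0.268 and 0.213 RPKM in the controls and 2.22, 1.56 and 0.930 with GSK101, an 8.07-fold ratio of the means on 4 to 10 and 34 to 84 reads (limma adjusted p = 0.00232). All its control values lay below the filter, so it entered the test only through its GSK101 libraries, and its call is no support for the counts it is part of. Pla2g16, also known as Plaat3, a phospholipase and acyltransferase, fell from 37.9 ± 2.52 to 25.0 ± 2.15 RPKM (SD, n = 3), a log2 fold change of -0.59 (limma adjusted p = 0.0011). Pla2g12a, another secreted phospholipase A2, fell by 0.43 (limma adjusted p = 0.00228). Mgll, the monoacylglycerol lipase that breaks down an endocannabinoid to arachidonic acid, fell by 0.59 (limma adjusted p = 0.0249). The call of Mgll was lost without control replicate 2 or 3, without GSK101 replicate 1 or 3 and with no filter, at limma adjusted p from 0.0535 to 0.0770. Of 3 tested genes that return arachidonic acid to lipids, 2 rose, where 20.1% of all tested genes were called higher. Acsl4, an acyl-CoA synthetase that prefers arachidonic acid, rose 1.30-fold from 9.79 ± 0.612 to 12.8 ± 0.592 RPKM (SD, n = 3; limma adjusted p = 0.004). Acsl3, a related synthetase, rose 1.11-fold at limma adjusted p = 0.0484 and kept its call in 6 of 18 alternatives, among the left-out libraries only without control replicate 2.

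Promoter sequences are shown for the 3 members that rose and for Ptgs2, so that the cyclooxygenase genes and the neighbours Pla2g4a and Ptgs2 can be compared. They run from 250 bases before to 50 bases after the start of the gene, 5′ to 3′ on the gene's strand, and come from RefSeq on GRCr8, where entries for 8 of the 10 genes matched by symbol. Capitals mark matches, on either strand, to TGACGTCA (cyclic AMP response element, CRE), TGACG (its shortened form), TGANTCA (AP-1), TTGCNNAA (C/EBP), TATAAA (the TATA box), CACGTG (the E-box), GGGCGG (the GC box) or GGAATG (bound by TEAD factors). TGACG lies within TGACGTCA, and the others were searched without regard to overlap.
Pla2g4a, chr13:64572303-64572602, minus strand: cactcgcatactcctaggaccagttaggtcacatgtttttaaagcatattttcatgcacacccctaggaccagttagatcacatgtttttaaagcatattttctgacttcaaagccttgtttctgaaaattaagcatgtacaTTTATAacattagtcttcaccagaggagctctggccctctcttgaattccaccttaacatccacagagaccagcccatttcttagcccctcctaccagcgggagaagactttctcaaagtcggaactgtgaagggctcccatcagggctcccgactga
Ptgs1, chr3:39981169-39981468, plus strand: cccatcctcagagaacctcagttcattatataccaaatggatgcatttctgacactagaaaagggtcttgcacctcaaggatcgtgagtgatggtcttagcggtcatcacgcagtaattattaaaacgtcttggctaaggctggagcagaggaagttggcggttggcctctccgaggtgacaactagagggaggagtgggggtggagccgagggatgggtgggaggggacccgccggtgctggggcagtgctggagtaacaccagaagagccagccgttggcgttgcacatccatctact
Ptgs2, chr13:64713813-64714112, plus strand: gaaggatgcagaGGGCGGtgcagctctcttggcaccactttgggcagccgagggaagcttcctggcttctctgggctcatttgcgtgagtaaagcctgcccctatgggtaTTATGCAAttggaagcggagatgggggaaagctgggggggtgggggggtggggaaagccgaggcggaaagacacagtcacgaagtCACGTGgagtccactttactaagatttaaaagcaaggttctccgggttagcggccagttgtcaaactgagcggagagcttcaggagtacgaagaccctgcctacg
Ptges3, chr7:1075059-1075358, plus strand: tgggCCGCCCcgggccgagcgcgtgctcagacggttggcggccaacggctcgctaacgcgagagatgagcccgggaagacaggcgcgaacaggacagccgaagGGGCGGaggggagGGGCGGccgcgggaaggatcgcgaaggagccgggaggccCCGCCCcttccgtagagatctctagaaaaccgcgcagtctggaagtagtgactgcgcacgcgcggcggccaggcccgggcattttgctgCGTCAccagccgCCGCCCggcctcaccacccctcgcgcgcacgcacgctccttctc

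The windows had few matches in common. Ptgs2 had a C/EBP match on the opposite strand whose first base lay at -140 from the start, an E-box match at -55 and a GC box match at -238. Ptgs1 had no match to any of the 8 motifs, Pla2g4a had 1, a TATA box match at -108 on the opposite strand, and Ptges3 had 5 GC box matches and 1 match to the shortened CRE. Of all 33469 promoter windows of this length, 10.6% held the C/EBP letters, 6.42% the E-box, 33.1% the GC box, 14.2% the TATA box and 21.2% TGACG. AP-1 letters occurred in 7.33% of all windows, full CRE letters in 1.83% and TEAD letters in 14.2%, and the 4 windows shown held none of these 3. A match is only a match of letters, and a window without one says nothing about the factor.

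Ptgs1 and Ptgs2 encode the cyclooxygenases, Ptgs1 the form made by most cells at a steady level and Ptgs2 the form known for its induction by cytokines and growth factors. In these cells Ptgs1 was the more abundant transcript in every library. Ptgs1 rose, Ptgs2 did not pass, and a difference between their responses was not shown. Ptgs1 is on chromosome 3 (15560712 to 15582344, plus strand, Rnor_6.0). It had an RPKM of 18.5, 18.3 and 15.5 in the controls and 23.0, 24.2 and 20.5 with GSK101. The groups did not overlap, and replicate 3 was the lowest in each group. Ptgs1 rose 1.29-fold, from 17.4 ± 1.69 to 22.6 ± 1.90 RPKM (SD, n = 3; log2 fold change 0.36, SE 0.09, limma adjusted p = 0.0152). Without GSK101 replicate 1 or 2 its limma adjusted p was 0.0521 and 0.0527, just outside the threshold, and it passed in the other 16 alternatives (0.00267 at the lowest).

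Ptgs2 lies 144393 bases from Pla2g4a, from 67351087 to 67359335 on the plus strand of chromosome 13 on Rnor_6.0, with its start facing that of Pla2g4a and no gene of the file between them. Its RPKM was 2.88, 2.71 and 3.09 in the controls and 3.51, 3.49 and 2.90 with GSK101, on 522 to 692 reads per library. GSK101 replicates 1 and 2 lay above all controls, and replicate 3 lay within the control range. The ratio of the means was 1.14, from 2.89 ± 0.189 to 3.30 ± 0.349 (SD, n = 3). The log2 fold change was 0.16 with a 95% interval from -0.05 to 0.37 (limma adjusted p = 0.214). That interval, taken as a fold on the RPKM + 0.5 scale, ran from 0.968 to 1.29. Ptgs2 passed in none of the 18 alternatives, with limma adjusted p from 0.0775 to 0.55.

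The mean RPKM of Ptgs1 was 6.03 times that of Ptgs2 in the controls and 6.83 times with GSK101. Ptgs2 made up 13.4%, 12.9% and 16.6% of the summed cyclooxygenase RPKM in the controls and 13.2%, 12.6% and 12.4% with GSK101. This share was 1.57 percentage points lower with GSK101, and the groups overlapped (exact two-sided permutation p = 0.2; 3 against 3 allows no p under 0.1). Without control replicate 3, the library with the highest share, it was 0.422 points lower. The summed cyclooxygenase RPKM was 21.4, 21.0 and 18.6 in the controls and 26.6, 27.7 and 23.4 with GSK101, a 1.27-fold ratio with groups apart (exact two-sided permutation p = 0.1, the smallest these groups allow).

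**Figure D2:**
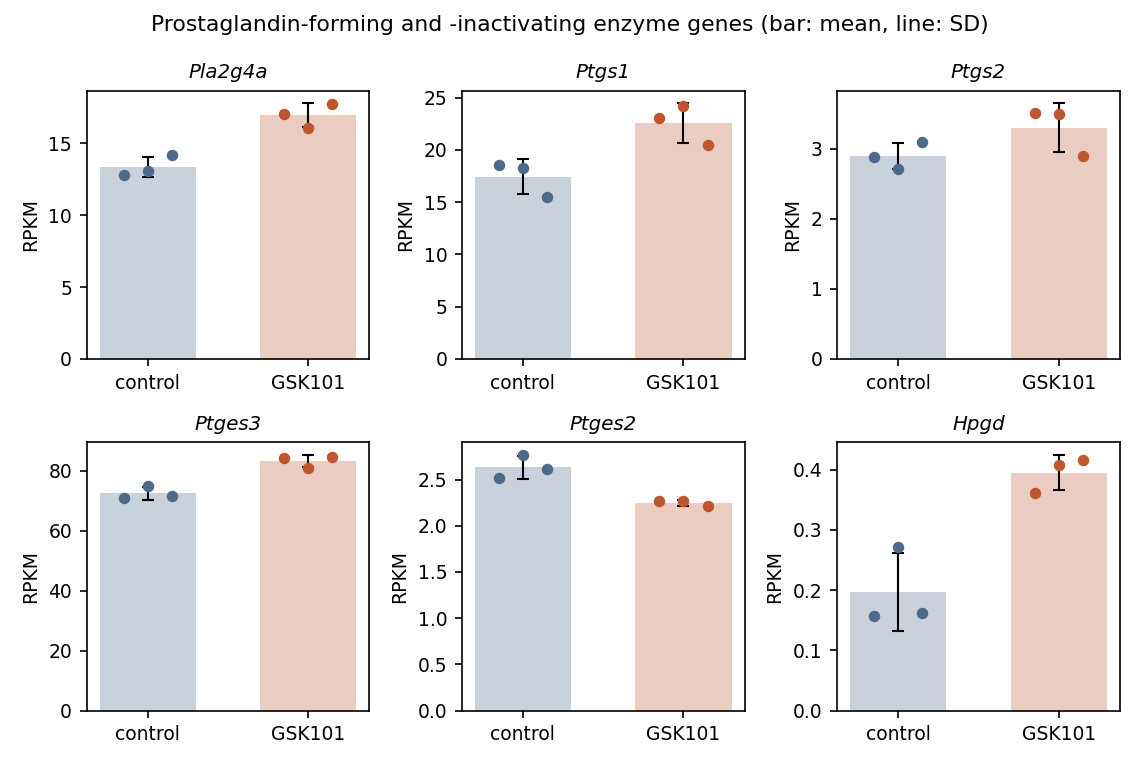
RPKM of 6 enzyme genes, with 1 point per library, bars at the group mean and lines for the SD (n = 3). Pla2g4a, Ptgs1, Ptges3 and Hpgd were higher and Ptges2 was lower in every GSK101 library than in every control library, and Ptgs2 overlapped.

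Of the terminal synthase genes, Ptges3 rose and Ptges2 did not pass, and Ptges and Ptgis were too low for the main test. Ptges3 encodes the cytosolic PGE synthase, which is also known as the co-chaperone p23, and was the most abundant of the 10 genes. It is on chromosome 7 (2479311 to 2497013, plus strand, Rnor_6.0). Its RPKM was 70.7, 74.9 and 71.6 in the controls and 84.3, 80.8 and 84.4 with GSK101. Each GSK101 library lay above the highest control. Ptges3 rose 1.15-fold, from 72.4 ± 2.19 to 83.2 ± 2.02 RPKM (SD, n = 3; log2 fold change 0.20, SE 0.04, limma adjusted p = 0.009). It passed in all 18 alternatives, with limma adjusted p from 0.0038 to 0.0435.

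Ptges2, a membrane-associated PGE synthase, is on chromosome 3 (11424099 to 11431402, plus strand, Rnor_6.0). It had 2.52, 2.77 and 2.62 RPKM in the controls and 2.26, 2.27 and 2.21 with GSK101. All 3 GSK101 values lay below the lowest control, but the difference did not pass. The log2 fold change was -0.19 (SE 0.07), with a 95% interval from -0.35 to -0.02 before adjustment (limma adjusted p = 0.08). It passed in 3 of 18 alternatives, median-ratio scaling, quantile normalization and limma without a variance trend, at limma adjusted p of 0.0461, 0.0241 and 0.0351. Among all alternatives the limma adjusted p ran from 0.0241 to 0.198.

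Ptges encodes microsomal PGE synthase, the form known to be induced together with Ptgs2 in inflammation. It is on chromosome 3 (9727408 to 9738752, minus strand, Rnor_6.0) and was close to the limit of detection. Its RPKM was 0.209, 0.218 and 0.253 in the controls and 0.251, 0.352 and 0.296 with GSK101. This was 12 to 14 and 14 to 20 reads per library, and the groups overlapped (exact two-sided permutation p = 0.2). That test allows no p under 0.1. The limma adjusted p was 0.258 with no filter and 0.626 with limma-voom without a filter, so a difference was not shown.

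Ptgis encodes prostacyclin synthase, which makes the vasodilator prostacyclin. It is on chromosome 3 (163950777 to 163986059, minus strand, Rnor_6.0). Its RPKM was 0.232, 0.268 and 0.160 in the controls and 0.556, 0.287 and 0.411 with GSK101, on 12 to 20 and 22 to 42 reads. The groups were apart by a narrow gap, and the GSK101 values were spread widely. The ratio of the means was 1.90 (exact two-sided permutation p = 0.1, the smallest possible). With no filter, where all 20675 genes were tested, its limma adjusted p was 0.122. The log2 ratio of Ptgis to Ptges had a mean of -0.01 ± 0.15 in controls and of 0.19 ± 0.30 after GSK101 (SD, n = 3), with overlapping groups (exact two-sided permutation p = 0.4). The difference was 0.21, and it was 0.05 without GSK101 replicate 1, 0.12 without control replicate 3 and 0.36 without GSK101 replicate 2. It was 0.39 at a pseudocount of 0.1 and 0.13 at 1.

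None of the 4 other tested terminal synthase genes passed, where 31.9% of all tested genes were called. The most abundant was Akr1b1, an aldose reductase that can form PGF2 alpha, at 86.3 ± 4.22 and 92.6 ± 2.59 RPKM (SD, n = 3; limma adjusted p = 0.142).

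Hpgd encodes hydroxyprostaglandin dehydrogenase, the enzyme that starts the inactivation of PGE2 by oxidizing it. It is on chromosome 16 (37457135 to 37495758, minus strand, Rnor_6.0). Its RPKM was 0.156, 0.271 and 0.162 in the controls and 0.361, 0.408 and 0.415 with GSK101. The groups were apart, and the 3 GSK101 values lay close together. On 12 to 20 and 27 to 31 reads per library, the ratio of the means was 2.01 (exact two-sided permutation p = 0.1, the smallest possible). Its level kept it out of the main test. With no filter its limma adjusted p was 0.0308, and with limma-voom on the recovered reads without a filter it was 0.0677, so the call depended on the model. Of 20675 genes, 16.6% were called with no filter and 20.5% in the limma-voom run without a filter.

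The log2 ratio of Ptgs2 to Hpgd had a mean of 2.29 ± 0.20 in controls and of 2.08 ± 0.17 after GSK101 (SD, n = 3), a difference of -0.20 with overlapping groups (exact two-sided permutation p = 0.3). The difference was -0.58 at a pseudocount of 0.1 and -0.08 at 1. It was -0.11 without GSK101 replicate 3, -0.13 without control replicate 3 and -0.32 without control replicate 2. Other genes of inactivation and transport were better covered, and their calls stand beside the 31.9% of all tested genes that were called. Ptgr1, a reductase acting on the products of Hpgd, rose 1.26-fold from 92.4 ± 4.54 to 117 ± 8.35 RPKM (SD, n = 3; limma adjusted p = 0.00544) and was the 1 gene of 4 tested breakdown genes to pass. Slco2a1, the carrier that takes prostaglandins into cells, had 1.12, 0.883 and 0.885 RPKM in the controls and 1.54, 1.42 and 1.73 with GSK101. It rose 1.62-fold (limma adjusted p = 0.0113). Abcc4, an exporter of prostaglandins, did not pass, at 1.38 ± 0.067 and 1.61 ± 0.112 RPKM (SD, n = 3; limma adjusted p = 0.181).

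Ptger4 and Ptger2 encode the PGE2 receptors EP4 and EP2, which couple to the stimulatory G protein and raise cyclic AMP. Ptger4 is on chromosome 2 (54952821 to 54963448, minus strand, Rnor_6.0). It had 1.31, 1.98 and 1.86 RPKM in the controls and 1.78, 1.51 and 1.62 with GSK101, on 88 to 128 reads per library. All GSK101 values lay between the lowest and the highest control. The log2 fold change was -0.04 with a 95% interval from -0.34 to 0.27 (limma adjusted p = 0.858), so a change of up to 1.20-fold higher or to 0.788-fold on the RPKM + 0.5 scale was compatible with the data. Its direction changed with the library left out and ran from -0.18 to 0.05.

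Ptger2 is on chromosome 15 (19338175 to 19350210, plus strand, Rnor_6.0). Its RPKM was 0.0223, 0.116 and 0.116 in the controls and 0.183, 0.180 and 0.0948 with GSK101, which is 2 to 10 and 8 to 16 reads. Control replicate 1, with 2 reads, lay under the floor of 3 reads taken as the limit that a count of 0 allows. The groups overlapped (exact two-sided permutation p = 0.3). The limma adjusted p was 0.316 with no filter and 0.276 with limma-voom without a filter, so a difference was not shown at this depth. The log2 ratio of Ptger4 to Ptger2 was 1.91 ± 0.11 and 1.71 ± 0.14 (SD, n = 3), with overlapping groups (exact two-sided permutation p = 0.2). The difference was -0.20, and it was -0.12 without GSK101 replicate 2 and at a pseudocount of 1. At a pseudocount of 0.1 it was -0.52 (exact two-sided permutation p = 0.1, the smallest possible). After adjustment over the 4 ratios compared here (the cyclooxygenase share, Ptgs2 to Hpgd, Ptgis to Ptges and Ptger4 to Ptger2), each permutation p was 0.4.

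Among the other prostanoid receptor genes, Ptgfr and Ptgir rose. Ptgfr, which encodes the receptor of PGF2 alpha, had 11.1, 12.7 and 12.0 RPKM in the controls and 27.1, 23.7 and 24.1 with GSK101. It rose 2.09-fold (log2 fold change 1.03, SE 0.07, limma adjusted p = 0.000113). Ptgir, the prostacyclin receptor gene, had 3.05, 3.12 and 2.84 RPKM in the controls and 4.72, 4.90 and 4.42 with GSK101. It rose 1.56-fold (log2 fold change 0.56, SE 0.07, limma adjusted p = 0.00103). Both kept their call in all 18 alternatives. The difference in response between these genes and Ptger4 was not tested.

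Ptger1, which encodes the calcium-coupled receptor EP1 and is named here after its values were seen, was the most abundant EP receptor gene. It had 8.27, 7.81 and 7.44 RPKM in the controls and 7.07, 6.79 and 6.88 with GSK101. All GSK101 values lay below the controls, but the log2 fold change of -0.17 did not pass (limma adjusted p = 0.0601). It passed with median-ratio scaling, quantile normalization, limma-voom on the filtered genes and without control replicate 3, at limma adjusted p from 0.016 to 0.0466. Tbxa2r, the thromboxane receptor gene, also chosen after its values were seen, lay below the filter at 0.358, 0.408 and 0.419 RPKM in the controls and 0.142, 0.152 and 0.184 with GSK101. Its groups were apart on 31 to 35 and 12 to 15 reads (exact two-sided permutation p = 0.1; limma adjusted p = 0.00616 with no filter and 0.0118 with limma-voom without a filter). Ptger3 had 5 to 8 reads per control library and 0 to 4 with GSK101, and the PGD2 receptor genes Ptgdr and Ptgdr2 had at most 2 reads in any library. Ptgfrn, a gene named for an inhibitor of the PGF2 alpha receptor, had 33.8 ± 2.16 and 34.5 ± 1.82 RPKM (SD, n = 3; limma adjusted p = 0.755), and its direction turned with median-ratio scaling, quantile normalization and limma-voom.

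**Figure D3:**
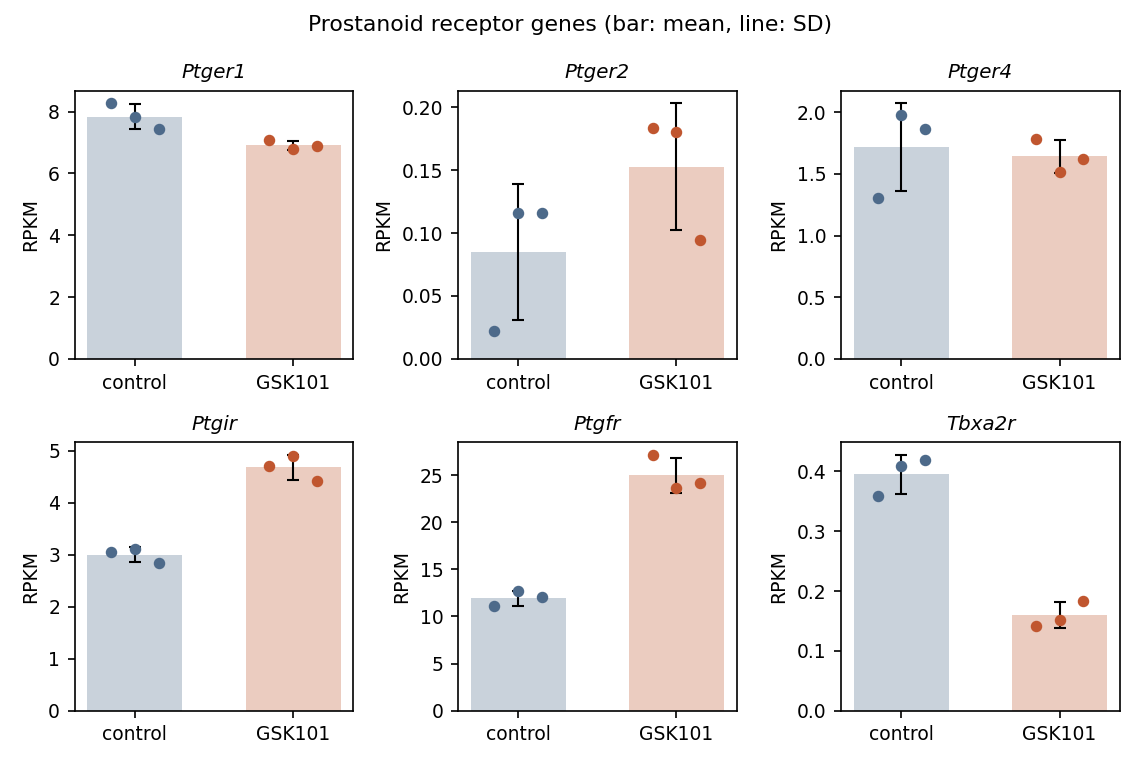
RPKM of 6 prostanoid receptor genes, with 1 point per library, bars at the group mean and lines for the SD (n = 3), each panel on its own scale. Ptgfr and Ptgir were higher and Ptger1 and Tbxa2r lower in every GSK101 library than in every control library, and Ptger2 and Ptger4 overlapped.

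Of the 43 other eicosanoid pathway genes found in the file, out of 50 listed, 28 were tested, 9 rose and 3 fell, with Pla2g2a, tested only through its GSK101 libraries, among the 9. That is 12 of 28 called, where 31.9% of all tested genes were called, and the median log2 fold change was 0.03, equal to that of all tested genes. The genes that rose were Ptgfr, Ptgir, Pla2g2a, Acsl4, Acsl3, Ptgr1, Slco2a1, Anxa1 and Anxa2, and those that fell were Pla2g16, Pla2g12a and Mgll. Anxa1, which encodes the phospholipase-inhibiting protein annexin A1, rose 1.23-fold from 625 ± 52.0 to 771 ± 6.83 RPKM (SD, n = 3; limma adjusted p = 0.00787). Anxa2, its relative, rose 1.17-fold from 328 ± 5.60 to 384 ± 11.8 RPKM (limma adjusted p = 0.00445).

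**Figure D4:**
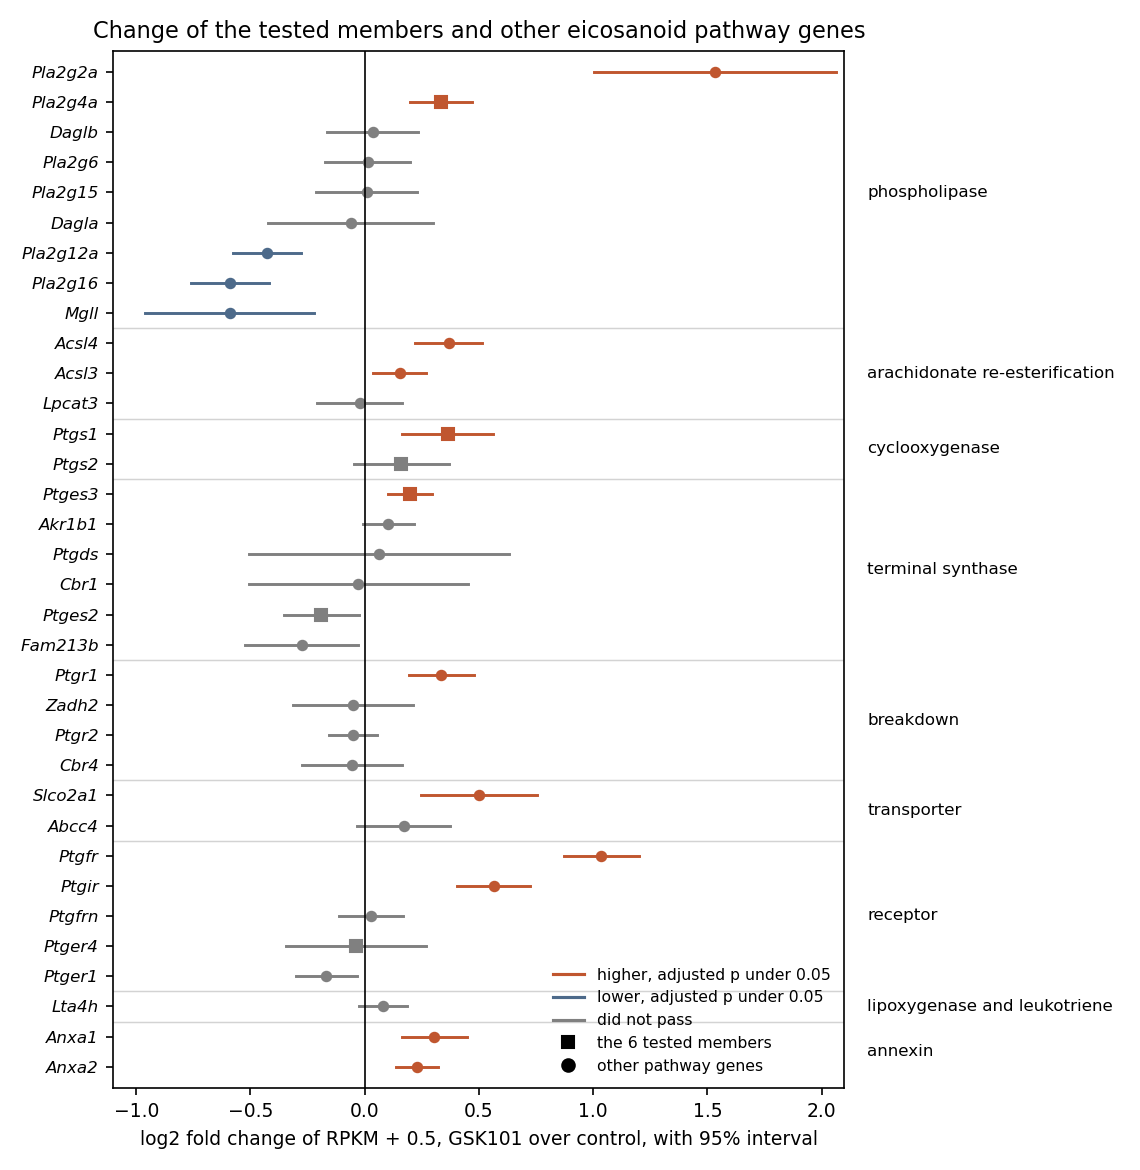
Log2 fold change of RPKM + 0.5, GSK101 over control, with its 95% interval, for the 6 tested members (squares) and 28 other tested eicosanoid pathway genes (circles), grouped by role. Pla2g2a and Ptgfr lie farthest to the right at 1.53 and 1.03, and the members lie between -0.19 and 0.36.

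Genes of EP2 and EP4 coupling were called in both directions, and their count is given as a description only. Of 17 tested genes for the stimulatory G protein, adenylyl cyclases, protein kinase A, CREB and arrestins, 3 rose, 1 fell and the median log2 fold change was 0.01, where 31.9% of all tested genes were called and their median was 0.03. Prkar2a, a regulatory subunit of protein kinase A, rose 1.45-fold from 12.3 ± 1.01 to 17.8 ± 0.373 RPKM (SD, n = 3; limma adjusted p = 0.001). Creb1, which encodes the cyclic AMP response factor CREB, rose 1.38-fold (limma adjusted p = 0.0226), and the calcium-stimulated cyclase gene Adcy8 1.46-fold at about 1 RPKM (limma adjusted p = 0.0343). Gnas, whose locus encodes the stimulatory G protein subunit, fell by 0.17 on the log2 scale (limma adjusted p = 0.0192). Prkar2a kept its call in all 18 alternatives. Creb1 lost it without control replicate 2 or GSK101 replicate 1 or 2, and Gnas without control replicate 2 or GSK101 replicate 1 or 3. Adcy8 kept it without GSK101 replicate 3 and lost it without any other library. The most abundant gene of the list, Prkar1a, did not pass, at 261 ± 10.2 and 281 ± 4.89 RPKM (SD, n = 3; limma adjusted p = 0.0809).

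Of 11 tested genes known to respond to cyclic AMP, 6 rose and 0 fell, where 20.1% of all tested genes were called higher and 11.9% lower. The median log2 fold change was 0.37, where that of all tested genes was 0.03. The gene at that median was Sik1, with 0.575, 0.465 and 0.409 RPKM in the controls and 0.793, 0.673 and 0.829 with GSK101. Sik1 met the filter only through its GSK101 libraries, so nothing is drawn from this median. The twelfth gene of the list, Fosb, an AP-1 subunit gene named here after its values were seen, lay below the filter. It had 0.503, 0.304 and 0.315 RPKM in the controls and 0.102, 0.159 and 0.230 with GSK101, lower in every GSK101 library (exact two-sided permutation p = 0.1, the smallest possible; limma adjusted p = 0.0691 with no filter and 0.0123 with limma-voom without a filter). Pde4b, a phosphodiesterase that degrades cyclic AMP, had 6.63, 6.44 and 5.75 RPKM in the controls and 13.6, 12.5 and 10.2 with GSK101. It rose 1.93-fold (limma adjusted p = 0.000872), but its exons overlap an unnamed gene on the same strand, which makes its level less certain. The orphan nuclear receptor genes Nr4a1 and Nr4a3 rose 2.39-fold and 2.19-fold (limma adjusted p = 0.00202 and 0.00598). Nr4a3 had 0.558, 0.471 and 0.422 RPKM in the controls, so it passed the filter only through its GSK101 libraries. The call of Nr4a3 is no support for the count of 6. With a filter of 1 RPKM, 4 of the 8 tested genes of the list were higher, where 22% of all 11585 genes tested so were higher. The median log2 fold change was then 0.25 in the list and 0.03 over all tested genes. Areg, which encodes the growth factor amphiregulin, rose 2.44-fold from 0.439 ± 0.036 to 1.07 ± 0.261 RPKM on 20 to 64 reads per library (SD, n = 3; limma adjusted p = 0.00757). Its control values all lay below the filter, so it was tested only through its GSK101 libraries, and its call is no support for the count of 6. Dusp1, a phosphatase of MAP kinases and the most abundant gene of the list, did not pass, at 35.0 ± 0.743 and 32.1 ± 0.899 RPKM (limma adjusted p = 0.0598), and was lower with median-ratio scaling, quantile normalization and limma-voom. These genes respond to many signals besides EP2 and EP4, and which of them acted here was not tested.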

How the data were processed

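Polyadenylated RNA was sequenced in 6 libraries, 3 per group. The authors deposited RPKM values for 20675 genes. Per the submitters' processing notes, the build was Rnor_6.0 and the tools, whose roles are not given, were STAR 2.5.3a, Trimmomatic 0.36, edgeR 3.12.1, Subread 1.5.1 and featureCounts. Per the labels' protocols the stranded kit added molecular identifiers of 8 bases. Collapsing of duplicates, use of strand and multimapping are not given in the sources used here.

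RPKM times length gave whole reads for 100% of values to within 0.01 of a read. An even number was found for 71.3% to 74.7% of genes at 1 to 10 reads, so both mates may have been counted. Floors cover counting error only.

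Log2(RPKM + 0.5) of the 12801 genes with at least 0.5 RPKM in 3 libraries was fitted with limma 3.58.1 (R 4.3.3), with group as the only term and a mean-variance trend, and tested at an adjusted p under 0.05. Members below the filter and ratios were tested by exact permutation (scipy 1.17.1). Fold values are ratios of mean RPKM unless given as log2, and the log2 scale understates changes of low genes. The script was tested on simulated data. Trimmed-mean scaling for limma-voom was written from its published definition.

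The members and gene lists were chosen with earlier results of these data known. The text names all members, every other pathway gene past the threshold and the most abundant gene of each role or list. From the other lists it names up to 4 genes past the threshold with the smallest adjusted p. Ptger1, Tbxa2r, Fosb and Sik1 were picked from their values. Low receptor and lipoxygenase genes are given by their reads only.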

Additional observations from a re-analysis of the deposited data

How the results depend on the processing

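The 18 alternatives were 2 pseudocounts, 2 filters, 3 scalings, 2 variance models, limma-voom, a replicate block, the removal of each library and, chosen after seeing the data, limma-voom without a filter. Of 108 values for the 6 tested members, 100 kept their direction and their side of the threshold, 2 lost a call (Ptgs1), 3 gained one (Ptges2) and 3 turned direction (Ptger4). Among members, 1 was called lower with median-ratio scaling, quantile normalization or no trend, against 0. The share of all tested genes called lower was 11.9% in the main fit and 10.7% with no trend. It was 15.2% with median-ratio scaling, 16.7% with quantile normalization and 8.73% after rescaling to TPM. In the limma-voom runs it was 16.7% with the filter and 9.22% without. The list counts below are to be read beside these shares. Hpgd passed with no filter (log2 difference 0.36). Of the wider pathway genes 5 were lower with quantile normalization and with limma-voom without a filter. Of the EP2 and EP4 coupling genes, 0 were lower after rescaling to TPM and 2 with median-ratio scaling, quantile normalization and both limma-voom runs. Leaving out 1 library gave 1 to 4 higher and 0 to 1 lower, where 14.3% to 17.9% of all tested genes were higher and 8.24% to 10.1% lower. Of the cyclic AMP genes, 1 was lower with median-ratio scaling, quantile normalization and limma-voom, and 2 with limma-voom without a filter. Ptgfrn turned to -0.011 with median-ratio scaling, -0.012 with quantile normalization and -0.012 and -0.013 in the limma-voom runs with and without a filter. Leaving out 1 library gave log2 fold changes from -0.0094 to 0.080 for Ptgfrn and from -0.18 to 0.050 for Ptger4. The cause of these changes was not tested. Quantile normalization and the block were not run for members below the filter.

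The deviations of same-numbered libraries from their group means had correlations of 0.05, -0.06 and 0.05. The highest of all pairs was 0.11, for control 1 with GSK101 2. With 3 libraries per group, these correlations cannot decide whether the numbers pair the samples. With a replicate block 2508 genes were higher and 1437 lower, and the members had 3 higher and 0 lower. The replicate block moved the limma adjusted p of Acsl3 to 0.0808 and of Adcy8 to 0.0625. With within-number differences the cyclooxygenase share differed by -1.57 points (exact sign-flip p = 0.25, the smallest possible). Depth limits Ptges, Ptgis, Hpgd and Ptger2, with 2 to 42 reads per library.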

Other observations

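The transcripts of Ptgs2 and of many cytokines carry AU-rich elements, to which stabilizing and destabilizing proteins bind. Of 10 tested genes for such proteins 3 rose, 1 fell and the median log2 fold change was 0.09, where 31.9% of all tested genes were called and their median was 0.03. Zfp36, which encodes the destabilizing protein tristetraprolin, fell, from 5.71 ± 0.214 to 4.55 ± 0.227 RPKM (SD, n = 3; log2 fold change -0.30, limma adjusted p = 0.00984). Its relative Zfp36l2 rose 1.26-fold, from 8.35 ± 0.569 to 10.6 ± 0.508 (limma adjusted p = 0.00856). Hnrnpd, which encodes AUF1, rose 1.17-fold, from 199 ± 7.64 to 233 ± 7.96 (limma adjusted p = 0.00753). Tia1, a translational repressor gene, rose 1.15-fold (limma adjusted p = 0.0205), with limma adjusted p from 0.0550 to 0.126 in the 7 alternatives that lost the call, among them the removal of control replicate 2 or of any 1 GSK101 library. Rbm3, the most abundant gene of the list, had 280.1 ± 6.20 and 293 ± 9.34 RPKM (limma adjusted p = 0.282).

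Lipoxygenases and leukotriene genes draw on the same arachidonic acid as the cyclooxygenases or act downstream of it. Of 12 such genes listed, 7 were matched in the file and the other 5 were not analysed here. Of the 7, 6 lay below the filter, and Alox5, the lipoxygenase gene that starts leukotriene synthesis, had at most 2 reads in any library. Lta4h, the leukotriene A4 hydrolase gene, was the exception at 37.0 ± 1.57 and 39.1 ± 0.774 RPKM (SD, n = 3; limma adjusted p = 0.223).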
